A study of Saccharomyces cerevisiae with 17 samples.

Results

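The genes described here encode the proteins of the small (40S) subunit of the cytosolic ribosome of Saccharomyces cerevisiae. They were taken by name from the array annotation, as every gene symbol made of RPS, a number and, where present, a final A or B. This gave 52 genes of the 5449 S. cerevisiae genes with a probe set of their own in the annotation. Other genes of such a name are not analysed here. The arrays came from the commercial wine yeast strains BM45 and VIN13, each fermenting Colombar grape must with little oxygen. Total RNA was taken from each strain on day 2, while the cells were in exponential growth, on day 5, early in stationary phase, and on day 14, late in it. There were 17 arrays, 3 for each strain and day other than day 2 of BM45, which had 2. Nothing in the labels says that the arrays of a group came from separate fermentations, so a p-value sets a difference against nothing but the spread among these samples, and the small number of arrays limits the precision of every value.

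The small subunit binds messenger RNA and reads its codons, while the large subunit joins the amino acids. Its proteins sit on the 18S ribosomal RNA in a head, a body and a platform, and most of them are needed for the RNA to mature as well as for translation. In yeast most are encoded by a pair of nearly identical genes, named A and B, kept from an ancient duplication of the genome. Transcription of these genes is among the most costly tasks of a growing yeast cell. It is driven by the factors Rap1, Fhl1, Ifh1 and Sfp1 under control of the TORC1 kinase, and it is known to drop when nutrients run out.

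Signals are deposited intensities, 1 value per probe set and array, and differences are between group means of log2(intensity + 16), written with the standard error of the fitted contrast. The words rise, fall and differ are used of a gene where the adjusted p of limma's moderated test, taken over all 5449 genes of the comparison, lay under 0.05. All 52 genes lay above the background bound of 100.7, set by probe sets of Schizosaccharomyces pombe, with single values from 485 to 15507. Of the 52 probe sets used, 14 are marked by the manufacturer as shared within a gene family or open to cross-hybridisation. RPS4B, RPS6B and RPS30A are read by such probe sets, so signal from their unlisted partners cannot be told apart. Across all genes the median intensity ran from 866.6 to 1150.4 over the 17 arrays. The ratio of 3' to 5' signal of the actin gene ACT1, a measure of RNA quality, ran from 1.70 to 5.55 at day 2 and from 1.39 to 2.86 at the later days. An array with the highest ratio of its group stood apart in 4 groups: replicate 4 of BM45 at day 2 (5.33), and in VIN13 replicate 1 at day 2 (5.55), replicate 3 at day 5 (2.86) and replicate 3 at day 14 (2.37). Counts without these 4 arrays are given for some comparisons, and some counts that are not given moved too. Of 9 stationary phase marker genes, 5 rose and 1 fell from day 2 to day 14 in BM45, where 28.8% of all genes rose and 46.6% fell. In VIN13 4 rose and 1 fell, beside 28.2% and 35.5% of all genes. The median difference of the 9 genes was 0.79 in BM45 and 0.04 in VIN13. The hexose transporter gene HXT5 had the largest rise of the 9 in both strains, by 3.91 ± 0.36 and 4.16 ± 0.32.

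**Figure D1:**
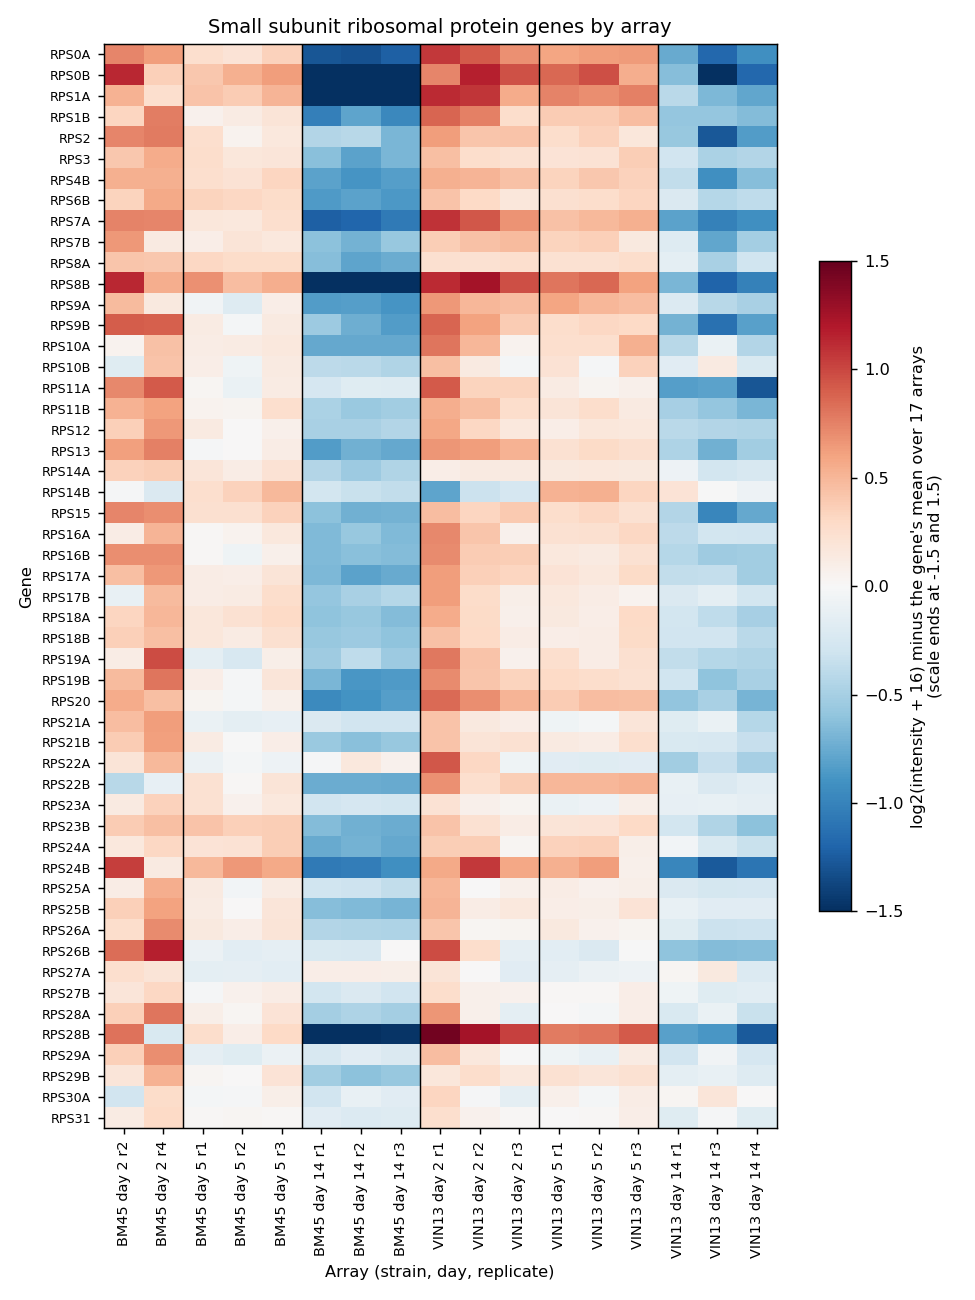
Log2(intensity + 16) of each of the 52 small subunit genes (vertical axis) on each of the 17 arrays (horizontal axis, grouped by strain and day), less the gene's mean over the arrays, with the colour scale ended at -1.5 and 1.5. The arrays of day 14 are lowest for most genes in both strains, with RPS14B, RPS22A, RPS27A and RPS30A among the exceptions.

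Small subunit genes as a group lost signal between the beginning and the end of the fermentation in both strains. Their median intensity was 8127 and 8495 on the 2 BM45 arrays of day 2, 5999, 5964 and 6462 on those of day 5 and 3641, 3748 and 3644 on those of day 14. In VIN13 it was 8759, 7474 and 6715 at day 2, 6565, 6725 and 6720 at day 5 and 4179, 4410 and 4115 at day 14. The day 14 arrays of both strains lay below every array of days 2 and 5, while in VIN13 the array medians of days 2 and 5 overlapped. From day 2 to day 14 in BM45, 48 of the 52 genes fell and none rose, where 46.6% of all genes fell and 28.8% rose. In VIN13 48 fell and 1 rose, where 35.5% of all genes fell and 28.2% rose. The median difference of the 52 genes was -1.08 in BM45 and -0.74 in VIN13, beside -0.24 and -0.06 for all genes. In BM45 32 genes fell at least 2-fold, as did 26.6% of all genes, and in VIN13 16, as did 10.6% of all genes. With each array centred on its median gene the medians were -0.74 and -0.68, beside 0.09 and 0.006 for all genes. With that centring 41 and 44 genes fell. The shares of all genes that fell with centring are not given here.

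From day 2 to day 14, 47 genes fell in both strains. With 48 of the 52 falling in each strain most had to be shared, and such a count was not made over all genes. Over the 52 genes the change in BM45 and the change in VIN13 had a Pearson correlation of 0.869 and a Spearman correlation of 0.86, and over all genes the Pearson correlation was 0.847. These values are across genes read on the same arrays, and genes are not independent replicates. In BM45 51 of the genes had every day 14 array below every day 2 array, as had 50.4% of all genes, and none had every array above, as had 32.6% of all genes. In VIN13 47 lay below and 1 above, beside 35.8% and 29.2% of all genes. Without the 4 arrays with a high ACT1 ratio, 48 genes fell in BM45 with a median of -0.98 and 49 in VIN13 with a median of -0.62. The medians of all genes were then -0.34 and -0.08. In bulk RNA fewer growing cells and less messenger RNA per cell cannot be told apart. Signal for ribosomal RNA moved the other way: the control probe set for the 3' end of the 18S ribosomal RNA read 7.16 to 70.7 in BM45 at day 2, 22.2 to 49.2 at day 5 and 265 to 975 at day 14. In VIN13 it read 4.77 to 29.7, 27.8 to 91.1 and 1744 to 8846. Its part in the falls was not tested. With the log2 ACT1 ratio as a covariate, 45 genes fell in each strain, with medians of -0.89 and -0.64 beside -0.35 and -0.10 for all genes. The shares of all genes that fell with the covariate, or without the 4 arrays, are not given here.

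Most of the loss came from day 5 to day 14, a longer interval than day 2 to day 5. Rates per day were not compared. In BM45 the day 5 arrays lay below all day 2 arrays for 33 genes and above them for 2, beside 40.9% and 28.9% of all genes. From day 2 to day 5 in BM45, 26 of the 52 genes fell and 2 rose, beside 33.9% and 22.8% of all genes (56.7% in either direction), with a median difference of -0.28 against -0.07 for all genes. From day 5 to day 14, 44 fell and 1 rose, beside 43.1% and 23.9% of all genes, with a median of -0.76 against -0.19. In VIN13 6 genes fell and 1 rose from day 2 to day 5, beside 22.2% and 15.5% of all genes, and the median was -0.14 against -0.03. From day 5 to day 14, 41 fell and none rose, beside 24.5% and 19% of all genes, and the median was -0.62 against -0.03. The late difference was lower than the early one for 43 genes in BM45 and 47 in VIN13. A total of 38 genes fell from day 5 to day 14 in both strains, and 5 fell from day 2 to day 5 in both. These counts in both strains, and those of late against early differences, were not made over all genes. The early counts depended on the scaling and on single arrays. With centring 14 genes fell early in BM45 and 2 in VIN13, while the late falls numbered 39 and 38. The 7 genes called early in VIN13 became 3 without VIN13 day 2 replicate 1, VIN13 day 5 replicate 1 or VIN13 day 5 replicate 2, and 14 without VIN13 day 2 replicate 3. The shares of all genes with centring or with an array left out are not given here.

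**Figure D2:**
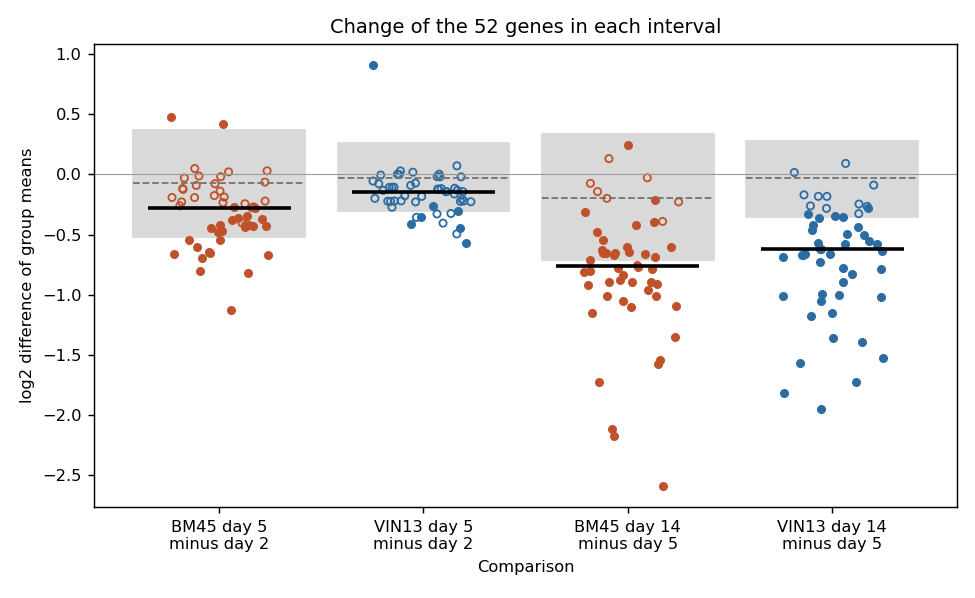
Log2 difference of group means for each of the 52 genes (points) in the early and the late interval of each strain, filled where the adjusted p lay under 0.05, with the median of the 52 genes as a solid line and the median and middle part (25th to 75th percentile) of all genes as a dashed line and a grey box. The solid line lies at -0.28 and -0.14 in the early interval and at -0.76 and -0.62 in the late one.

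The largest fall in BM45 was that of RPS8B, and RPS0A, RPS0B, RPS1A, RPS7A, RPS24B and RPS28B also fell more than most. RPS8B is one of the genes for a protein of the body. Its probe set read 5038 and 3341 in BM45 at day 2, 3690.2, 3151 and 3338 at day 5 and 536, 546 and 567 at day 14. In VIN13 it read 4998, 5442 and 4472 at day 2, 4003, 4152 and 3477 at day 5 and 1409.9, 983 and 1128 at day 14. Days 2 and 5 overlapped in BM45 but not in VIN13, and every day 14 array of either strain was far below both. RPS8B fell by 2.87 ± 0.17 in BM45 (adjusted p = 1.69e-09) and fell by 2.08 ± 0.15 in VIN13 (adjusted p = 4.02e-08) from day 2 to day 14, almost all of it after day 5 in BM45, where the late difference was -2.59 ± 0.15.

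RPS0A and RPS0B encode a protein at the junction of head and body on the solvent side, which is needed for the last cleavages of the 18S precursor. RPS0A read 3830.4 and 3564 in BM45 at day 2, 2731, 2655 and 2918 at day 5 and 938, 918 and 972 at day 14. In VIN13 RPS0A read 4817, 4367 and 3693 at day 2, 3476, 3543 and 3573 at day 5 and 1354, 1005 and 1204 at day 14. The 3 days did not overlap in either strain, each lying below the one before. RPS0A fell by 1.95 ± 0.13 in BM45 (adjusted p = 3.79e-09) and fell by 1.84 ± 0.11 in VIN13 (adjusted p = 7.53e-09) over the whole time. RPS0B read 4585 and 2675 at day 2, 2766, 3036 and 3225 at day 5 and 663, 695 and 684 at day 14 in BM45, and its 2 day 2 arrays spanned all values of day 5. RPS0B fell by 2.34 ± 0.25 in BM45 and fell by 2.11 ± 0.23 in VIN13, with adjusted p of 7.26e-07 and 1.63e-06.

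RPS1A and RPS1B encode a protein of the platform, beside the channel where messenger RNA leaves the subunit. RPS1A read 2761 and 2289 in BM45 at day 2, 2577, 2494 and 2740.5 at day 5 and 637, 485 and 584 at day 14. In VIN13 it read 4190.5, 4052 and 2815 at day 2, 3213, 3124 and 3254 at day 5 and 1445, 1192 and 1105 at day 14. Each day 14 array of VIN13 was above each day 14 array of BM45, and both lay below all earlier arrays of their strain. The difference from day 2 to day 14 was -2.12 ± 0.17 in BM45 (adjusted p = 2.49e-08) and -1.54 ± 0.15 in VIN13 (adjusted p = 6.31e-07). RPS7A, for another protein of the body, fell (-1.89 ± 0.11 in BM45 and -1.81 ± 0.10 in VIN13), as did its partner RPS7B (-1.02 ± 0.16 and -0.92 ± 0.14).

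RPS28B encodes a small protein of the head at the messenger RNA exit, known in yeast to limit the stability of its own messenger RNA together with the decay factor Edc3. Its probe set read 2631 and 1270.5 in BM45 at day 2, 1787, 1595 and 1828 at day 5 and 512, 504 and 526 at day 14. In VIN13 it read 4087, 3542 and 3032 at day 2, 2557, 2606 and 2831 at day 5 and 836, 803 and 612 at day 14. The 2 BM45 arrays of day 2 lay far apart, and VIN13 stood above BM45 at each day without overlap. RPS28B fell by 2.22 ± 0.20 in VIN13, the largest fall of the 52 genes there (adjusted p = 2.84e-07), and fell by 1.80 ± 0.22 in BM45 (adjusted p = 2.9e-06). RPS24B, one of the genes for a protein of the body, read 2836 and 1508 at day 2, 1932, 2164 and 2035 at day 5 and 648, 661 and 718 at day 14 in BM45 and 2040.0, 2884 and 2064 at day 2, 1996, 2128 and 1449 at day 5 and 686, 562 and 635 at day 14 in VIN13. Every day 14 array lay below every earlier one in both strains. RPS24B fell by 1.85 ± 0.20 in VIN13 (adjusted p = 1.84e-06) and fell by 1.59 ± 0.23 in BM45.

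**Figure D3:**
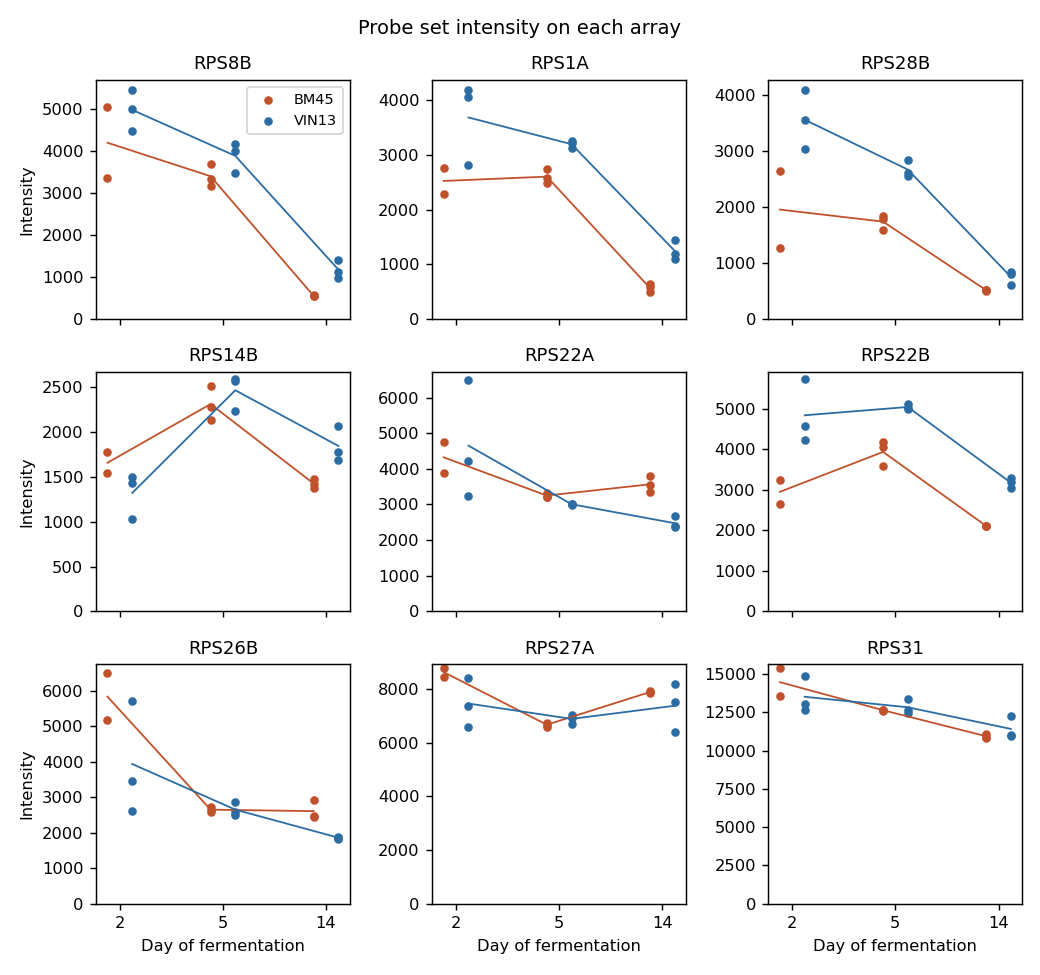
Probe set intensity (vertical axes, from 0, each gene on its own scale) of 9 small subunit genes on each array against the day of fermentation (days evenly spaced), with BM45 and VIN13 in different colours and lines through the group means. RPS8B, RPS1A and RPS28B are lowest at day 14 in both strains, and RPS14B is highest at day 5 in both.

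A set of genes lost signal early in BM45 instead. RPS26B encodes a zinc-binding protein that touches messenger RNA just upstream of the exit site. It read 5157 and 6499 in BM45 at day 2, 2726, 2585 and 2634 at day 5 and 2459.7, 2448 and 2912 at day 14. Both day 2 arrays lay well above all later ones, and days 5 and 14 overlapped. RPS26B fell early, with a difference of -1.12 ± 0.22 (adjusted p = 0.00058), and its late difference was -0.03 ± 0.20 and not called (adjusted p = 0.913). In VIN13 RPS26B read 5713, 3464 and 2623 at day 2, 2596, 2486 and 2864 at day 5 and 1891, 1833 and 1854 at day 14, with days 2 and 5 overlapping. There the early difference of -0.49 ± 0.20 was not called (adjusted p = 0.0604), the late one of -0.50 ± 0.20 lay at the threshold (adjusted p = 0.0498) and passed it no longer with centring (0.0671), and RPS26B fell by 0.999 ± 0.20 over both (adjusted p = 0.000438).

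RPS11A, which encodes a protein of the body that binds early in assembly, showed a like course in BM45. It read 5446 and 6232 at day 2, 3365, 3083 and 3589.8 at day 5 and 2769, 2903 and 2877 at day 14. RPS11A fell early, by a difference of -0.80 ± 0.17 (adjusted p = 0.00116), and the late difference of -0.23 ± 0.15 was not called (adjusted p = 0.202). In VIN13 RPS11A read 6227, 4138 and 4139 at day 2, 3596, 3389 and 3485 at day 5 and 1854, 1885 and 1348 at day 14, and there RPS11A fell more in the late interval, with a difference of -1.05 ± 0.15 (adjusted p = 0.000105). RPS21A and RPS29A also fell early in BM45, with differences of -0.67 ± 0.12 and -0.66 ± 0.14, with late differences of -0.14 ± 0.11 and -0.07 ± 0.12 that were not called. Their products lie in the body and, as a zinc-binding protein, in the head. RPS9B, whose product takes part in the accuracy of decoding, and RPS16B, for a protein of the head that reaches toward the transfer RNA, fell in both intervals in BM45, with differences of -0.82 ± 0.14 and -0.69 ± 0.10 early and -0.78 ± 0.13 and -0.65 ± 0.09 late.

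In VIN13 6 genes fell early. RPS7A fell by 0.41 ± 0.10 (adjusted p = 0.00564), RPS13 fell by 0.35 ± 0.09 (adjusted p = 0.00607) and RPS16B fell by 0.31 ± 0.09 (adjusted p = 0.0185). RPS11A fell by 0.44 ± 0.15 (adjusted p = 0.0341), RPS22A fell by 0.57 ± 0.18 (adjusted p = 0.02) and RPS20 fell by 0.26 ± 0.09 (adjusted p = 0.0431). The call of RPS16B ended without VIN13 day 2 replicate 1 (adjusted p = 0.0747) or VIN13 day 5 replicate 1 or 2 (0.056 and 0.066), while RPS7A and RPS13 were called with any one array left out. The call of RPS11A ended without VIN13 day 2 replicate 1 (adjusted p = 0.167) or any one VIN13 day 5 array (0.0622 to 0.0924). The call of RPS22A ended without VIN13 day 2 replicate 1 (0.0725) or VIN13 day 5 replicate 1 or 2 (0.055 and 0.0541). That of RPS20 ended without any one of 11 arrays, with adjusted p from 0.0539 to 0.166, namely all BM45 and VIN13 arrays of day 5, those of BM45 at day 14 and VIN13 day 2 replicates 1 and 2. With centring RPS11A, RPS22A, RPS20 and RPS16B missed the threshold, with adjusted p of 0.0808, 0.0537, 0.136 and 0.0688.

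All 7 genes without a partner fell from day 2 to day 14 in both strains, with a median of -1.27 in BM45 and -1.12 in VIN13. As given above, 48 of the 52 small subunit genes fell in each strain, where 46.6% and 35.5% of all genes fell. RPS2 encodes a protein at the messenger RNA entry that takes part in decoding accuracy. It read 10063 and 10428 in BM45 at day 2, 7206, 6301 and 6797 at day 5 and 4451, 4533 and 3760.2 at day 14, and 9390.2, 8095 and 8142 at day 2, 7302, 7729 and 6819 at day 5 and 4091, 2500.0 and 3389.5 at day 14 in VIN13. The 3 days did not overlap in either strain, and RPS2 fell (-1.27 ± 0.16 in BM45 and -1.38 ± 0.14 in VIN13) (adjusted p = 3.66e-06 and 1.19e-06). RPS13, for a body protein at the contact with the large subunit, fell (-1.46 ± 0.10 in BM45 and -1.18 ± 0.09 in VIN13). RPS15, whose product in the head is needed for export of the subunit from the nucleus, fell (-1.40 ± 0.12 in BM45 and -1.12 ± 0.11 in VIN13). RPS20, for a head protein that the ubiquitin ligase Hel2 marks when ribosomes collide, fell (-1.40 ± 0.11 in BM45 and -1.28 ± 0.09 in VIN13). RPS3, for a head protein of the messenger RNA entry channel, fell (-1.18 ± 0.10 in BM45 and -0.72 ± 0.09 in VIN13). RPS12, for a protein of the beak of the head, fell (-0.97 ± 0.12 in BM45 and -0.78 ± 0.10 in VIN13).

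RPS31 had the smallest fall of these 7. It encodes a fusion of ubiquitin with a head protein, so that each ribosomal protein made also releases a ubiquitin. It read 13541 and 15387 in BM45 at day 2, 12581, 12667 and 12657 at day 5 and 11108, 10788 and 10909.8 at day 14, and 14855, 13021 and 12652 at day 2, 12478, 12618 and 13377 at day 5 and 11024, 12269 and 10940.1 at day 14 in VIN13. The 3 days did not overlap in BM45, and in VIN13 days 2 and 5 did. The differences of RPS31 were -0.40 ± 0.10 (adjusted p = 0.00156) and -0.24 ± 0.09 (adjusted p = 0.024). With centring the difference in BM45 was -0.07 (adjusted p = 0.596) and that in VIN13 -0.17 (0.134), and with the ACT1 ratio as a covariate neither was called (0.0628 and 0.099). The call in VIN13 also ended without VIN13 day 2 replicate 1 (0.0944), VIN13 day 14 replicate 1 (0.0683) or VIN13 day 14 replicate 4 (0.0788).

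A few genes did not follow the others. RPS14B is one of the genes for Rps14, a platform protein, and the protein is known in yeast to block splicing of the RPS14B transcript. It read 1774 and 1541 in BM45 at day 2, 2139, 2284 and 2515 at day 5 and 1481, 1417 and 1379 at day 14. In VIN13 it read 1032, 1430.4 and 1500.5 at day 2, 2571, 2591 and 2239 at day 5 and 2066, 1778 and 1692 at day 14. Day 5 was highest in both strains without overlap, and in VIN13 all day 14 arrays stayed above all day 2 arrays. RPS14B rose from day 2 to day 5 by 0.91 ± 0.13 in VIN13 (adjusted p = 0.000111) and by 0.48 ± 0.15 in BM45 (adjusted p = 0.0129). The rise in BM45 was not called without BM45 day 2 replicate 4 (0.38, adjusted p = 0.111) or with the ACT1 ratio as a covariate (0.18, adjusted p = 0.316). From day 5 to day 14 RPS14B fell (-0.69 ± 0.13 in BM45 and -0.42 ± 0.13 in VIN13), although the call in VIN13 ended without VIN13 day 5 replicate 1 or 2 or VIN13 day 14 replicate 3 or 4 (adjusted p = 0.0582 to 0.0756). RPS14B was left higher at day 14 than at day 2 in VIN13 by 0.49 ± 0.13 (adjusted p = 0.00459), the sole rise over the whole time among the 52 genes, and at a difference of -0.21 ± 0.15 in BM45 (adjusted p = 0.202). Its partner RPS14A fell over the same time (-0.84 ± 0.09 in BM45 and -0.32 ± 0.08 in VIN13).

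RPS22A lies next to RPS14B in the genome, the sole pair of neighbours among the 52 genes. Its product and that of RPS22B is a body protein close to the central domain of the 18S RNA. RPS22A read 3882 and 4763 in BM45 at day 2, 3199, 3329 and 3221 at day 5 and 3349.7, 3799 and 3548 at day 14. In VIN13 it read 6506, 4206 and 3240.5 at day 2, 3015, 2993 and 3014 at day 5 and 2355, 2664 and 2406 at day 14. All BM45 arrays of day 14 lay above those of day 5, but the late difference of 0.13 ± 0.18 was not called (adjusted p = 0.526), nor was that over the whole time (adjusted p = 0.221). In VIN13 RPS22A fell by 0.85 ± 0.18 (adjusted p = 0.000675). RPS22B rose early in BM45, by 0.42 ± 0.12 (adjusted p = 0.0101). It read 2654 and 3248 at day 2, 4171, 3587 and 4049 at day 5 and 2114, 2118 and 2096 at day 14, so that all day 5 arrays were above all others. This rise was not called without BM45 day 2 replicate 2 (0.27, adjusted p = 0.119).

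RPS27A is one of the genes for a zinc-binding protein. It read 8800.0 and 8471 in BM45 at day 2, 6677, 6745 and 6599.6 at day 5 and 7892, 7934 and 7851 at day 14, and 8433, 7386 and 6573 at day 2, 6718, 6939 and 7019 at day 5 and 7534, 8201 and 6411 at day 14 in VIN13. In BM45 day 5 was lowest without overlap, and in VIN13 the 3 days overlapped. In BM45 RPS27A fell by 0.37 ± 0.11 early (adjusted p = 0.0121) and rose by 0.24 ± 0.10 late (adjusted p = 0.047). The early fall was not called with centring (-0.23, adjusted p = 0.118) or without BM45 day 2 replicate 2 (0.053). The late rise lost its call without any one of 11 arrays, with adjusted p up to 0.104, namely all BM45 and VIN13 arrays of day 5, those of BM45 at day 14, VIN13 day 2 replicate 2 and VIN13 day 14 replicate 1. From day 2 to day 14 neither strain had a called difference (-0.13 ± 0.11 in BM45 and -0.02 ± 0.10 in VIN13). RPS30A, for a body protein made as a fusion with a ubiquitin-like part in mammals, had differences of -0.18 ± 0.15 and 0.01 ± 0.14 that were not called (adjusted p = 0.308 and 0.932), on a probe set that may also read RPS30B. RPS10B, for a protein of the beak, fell by 0.54 ± 0.18 in BM45 (adjusted p = 0.0126) and had a difference of -0.27 ± 0.16 in VIN13 that was not called (adjusted p = 0.154). Without BM45 day 2 replicate 4 the BM45 difference was -0.24 (adjusted p = 0.271), and with centring -0.21 (0.352).

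Falls were found throughout the subunit. In BM45 all 21 genes for head proteins fell from day 2 to day 14, with a median of -1.01. So did 27 of the 31 for the body and platform, with a median of -1.12, beside 46.6% of all genes. In VIN13 20 of 21 and 28 of 31 fell, with medians of -0.72 and -0.91, beside 35.5% of all genes. The range in BM45 was wider in the body and platform, from -2.87 to -0.13, than in the head, from -1.80 to -0.40. In VIN13 it ran from -2.11 to 0.49 in the body and platform and from -2.22 to -0.24 in the head. The lowest value in VIN13 thus lay in the head. The 14 genes read by shared or cross-hybridising probe sets had medians of -0.96 and -0.58. Signal at day 2 and the late change had a Spearman correlation of 0.287 over the 52 genes in BM45 and 0.412 in VIN13, beside -0.129 and -0.151 over all genes. Both quantities rest on values of the same arrays and on probe sets of unlike sensitivity, and the grouping by place and these correlations are descriptions without a test.

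The strains were then compared at each day. At day 2, 3 genes were higher and 2 lower in VIN13, beside 7.95% and 23.3% of all genes, and the median difference of VIN13 minus BM45 was -0.12 beside -0.13 for all genes. With centring the median turned to 0.05, with 7 genes higher and none lower. At day 5, 6 were higher and none lower, beside 9.89% and 15.3% of all genes, with a median of 0.09 beside -0.07. By limma 7 were higher and none lower at an unadjusted p under 0.05, beside 757 and 1265 of all 5449 genes. At day 14, 21 were higher and 3 lower, beside 32.4% and 21.1% of all genes (53.5% in either direction), with a median of 0.26 beside 0.07. With centring 10 were higher and 4 lower at day 14, with a median of 0.16, and without the 4 arrays with a high ACT1 ratio 35 were higher and 3 lower. The shares of all genes under these settings are not given here. Counts moved with single arrays. At day 14, 14 genes were called without BM45 day 14 replicate 2. At day 5, 3 were called without BM45 day 5 replicate 1, and 2 without BM45 day 5 replicate 2 or 3 or any one VIN13 day 5 array. At day 2, 13 were called without BM45 day 2 replicate 2 or VIN13 day 2 replicate 1, 1 without BM45 day 2 replicate 4 and 2 without VIN13 day 2 replicate 2. It was 3 without any one BM45 day 5 array, without VIN13 day 5 replicate 1 or 2, and without BM45 day 14 replicate 1 or 2.

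RPS22B and RPS28B were higher in VIN13 at each day. For RPS22B the difference was 0.71 ± 0.12 at day 2 (adjusted p = 0.000808), 0.36 ± 0.11 at day 5 and 0.59 ± 0.11 at day 14 (adjusted p = 0.000468), and 0.55 ± 0.07 averaged over days (adjusted p = 9.4e-06). VIN13 read 5723, 4218 and 4577 at day 2, 5018, 4997 and 5119 at day 5 and 3284, 3054 and 3185 at day 14, each above every BM45 array of that day. The call at day 5 (adjusted p = 0.027) ended without BM45 day 5 replicate 2 (0.124) or 3 (0.0539) or any one VIN13 day 5 array (0.0568 to 0.0695). For RPS28B the difference was 0.94 ± 0.22 at day 2 (adjusted p = 0.00555), 0.61 ± 0.20 at day 5 (adjusted p = 0.0345), 0.52 ± 0.20 at day 14 (adjusted p = 0.0389) and 0.69 ± 0.12 averaged over days (adjusted p = 0.000247). The call at day 14 ended without any one array of day 14 other than VIN13 replicate 4 (adjusted p = 0.0725 to 0.124), and with centring (0.0705). Without BM45 day 2 replicate 4, which read 1270.5 against 2631 on the other array, the day 2 difference of RPS28B was 0.42 (adjusted p = 0.0946). Its day 5 call ended without any one BM45 or VIN13 array of day 5 (adjusted p = 0.0641 to 0.118).

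RPS9A, whose splicing is known in yeast to respond to the level of Rps9, was higher in VIN13 at day 5 by 0.57 ± 0.11 (adjusted p = 0.00141) and at day 14 by 0.48 ± 0.11 (adjusted p = 0.00185). It read 1530.4, 1387 and 1699 in BM45 and 2408, 2256 and 2202 in VIN13 at day 5, without overlap. RPS20 was higher in VIN13 by 0.40 ± 0.09 at day 5 (adjusted p = 0.00615) and 0.29 ± 0.06 averaged over days (adjusted p = 0.00063). RPS1A and RPS8B had the largest differences at day 14, 1.11 ± 0.15 (adjusted p = 2.51e-05) and 1.06 ± 0.15 (adjusted p = 4.35e-05). Their day 14 arrays, given above, did not overlap between the strains. RPS24A was higher at day 14 by 0.55 ± 0.11 (adjusted p = 0.00103), with 5831, 5117 and 4755 in VIN13 against 3535, 3666 and 3504 in BM45.

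RPS11A, RPS22A and RPS2 were the 3 genes lower in VIN13 at day 14. RPS11A differed by -0.76 ± 0.15 (adjusted p = 0.000768), with every VIN13 array below every BM45 array. RPS22A differed by -0.52 ± 0.18 (adjusted p = 0.0209), also without overlap, and lost its call without BM45 day 14 replicate 2 (0.0691) or VIN13 day 14 replicate 1 (0.061) or 4 (0.056). RPS2 differed by -0.37 ± 0.14 (adjusted p = 0.0392). Without VIN13 day 14 replicate 3, which read 2500.0, its difference was -0.18 (adjusted p = 0.215), and its call also ended without BM45 day 14 replicate 1 (0.111) or 2 (0.123), VIN13 day 14 replicate 4 (0.0607) or BM45 day 5 replicate 3 (0.0501).

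At day 2 RPS1A was higher in VIN13 by 0.53 ± 0.17 (adjusted p = 0.0269), and RPS14A and RPS26B were lower, with differences of -0.24 ± 0.09 (adjusted p = 0.0469) and -0.63 ± 0.22 (adjusted p = 0.0408). RPS1A lost its call without BM45 day 2 replicate 4 (0.173), VIN13 day 2 replicate 1 (0.072) or VIN13 day 2 replicate 2 (0.0896). RPS14A lost it for every array left out other than VIN13 day 5 replicate 3 and VIN13 day 14 replicates 1 and 3, with adjusted p up to 0.138, and with centring it differed by -0.07 (adjusted p = 0.556). RPS26B lost it for every array left out other than replicates 2 (day 2) and 3 (day 14) of BM45 and, of VIN13, replicate 1 at day 2, replicate 3 at day 5 and replicates 1 and 3 at day 14, with adjusted p up to 0.221, and with centring its adjusted p was 0.159. Averaged over the 3 days, 11 genes were higher in VIN13 and 2 lower, beside 21.2% and 28% of all genes, with a median of 0.06 beside -0.04. The 2 lower genes were RPS26B and RPS11A, at -0.37 ± 0.12 and -0.33 ± 0.09. RPS26B missed the threshold with centring (adjusted p = 0.0506) and without BM45 day 2 replicate 4 (0.0502).

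**Figure D4:**
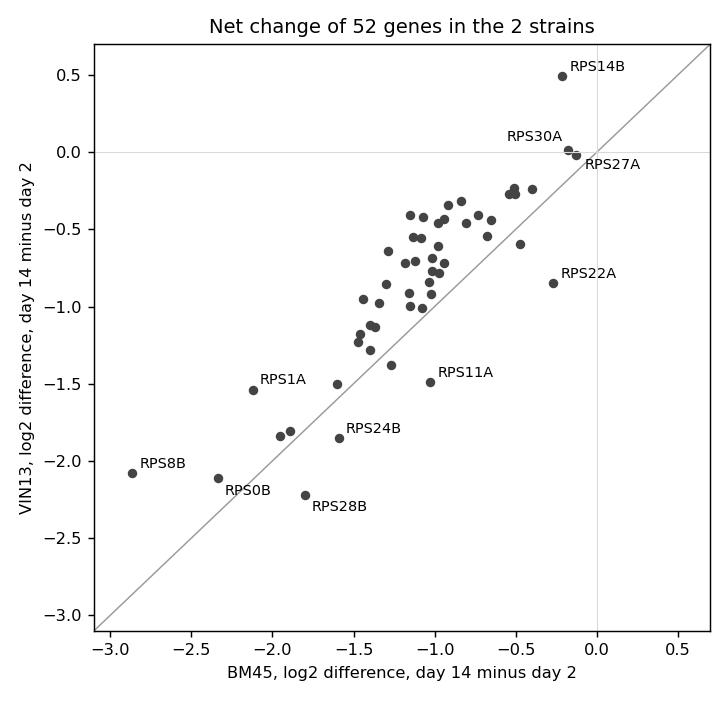
Log2 difference of day 14 minus day 2 for each of the 52 genes in BM45 (horizontal axis) and in VIN13 (vertical axis), with the line of equal change. Most genes lie above the line, with medians of -1.08 in BM45 and -0.74 in VIN13, which were -0.74 and -0.68 with centring, and RPS2, RPS11A, RPS22A, RPS22B, RPS24B and RPS28B lie below it.

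The difference between the strains in the size of a change was tested as an interaction. For the change from day 2 to day 5 limma called none of the 52 genes, beside 6.53% of all genes called higher and 2.13% lower in VIN13, or 8.66% in all. At an unadjusted p under 0.05, 8 were higher and none lower, beside 973 and 456 of all 5449 genes. With the ACT1 ratio as a covariate 2 were called, without the 4 arrays with a high ACT1 ratio 6, and without BM45 day 2 replicate 2 or VIN13 day 2 replicate 1 the count was 7. The shares of all genes called under these settings are not given here. For the change from day 5 to day 14, 8 were higher and 1 lower in VIN13, beside 23.8% and 10.3% of all genes (34.2% in either direction). The median was 0.13 beside 0.15 for all genes, and with centring the median was -0.05, with 2 higher and 3 lower. RPS8B fell less in VIN13, with a difference of 0.87 ± 0.21 (adjusted p = 0.00673), and so did RPS1A, at 0.82 ± 0.21 (adjusted p = 0.0089). RPS11A fell more in VIN13, at -0.82 ± 0.22 (adjusted p = 0.00965). These 3 kept their calls with centring, while RPS24A (0.55 ± 0.16, adjusted p = 0.0177) and RPS6B (0.53 ± 0.13, adjusted p = 0.00653) did not.

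Partner genes of a pair did not change alike. The ratio of A to B signal was compared between groups within arrays, over 52 such pairs of genes on the array, of which 21 were small subunit pairs. All the others but COX5A/B and NHP6A/B were pairs of other ribosomal protein genes. The 52 pairs therefore do not stand for partner genes in general. The level of 1 probe set says nothing against that of another, so only the change of a ratio is given. From day 2 to day 14, averaged over strains, the ratio changed in 17 of the 21 pairs, 11 toward A and 6 toward B, beside 78.8% of all 52 pairs (38.5% toward A and 40.4% toward B), a share close to theirs. The sign was the same in both strains for 17 pairs, of which 15 were called. With the brightest probe sets the largest shift was that of RPS8A to RPS8B, where log2(A/B) changed by 1.63 ± 0.10 (adjusted p = 5.55e-09). It read 1.45 and 2.04 on the BM45 arrays of day 2, 3.60, 3.43 and 3.41 at day 14, and 1.29, 1.16 and 1.47 and 2.72, 2.89 and 2.89 on those of VIN13, without overlap in either strain. RPS8A fell (-1.13 ± 0.10 in BM45 and -0.55 ± 0.09 in VIN13), so the shift toward A came with a larger fall of RPS8B.

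RPS28A to RPS28B moved by 1.26 ± 0.19 (adjusted p = 3.66e-05) and RPS24A to RPS24B by 1.001 ± 0.15 (adjusted p = 4.4e-05), both toward A. In BM45 the days overlapped. There log2(RPS28A/RPS28B) read 1.20 and 2.69 at day 2 and 2.66, 2.73 and 2.62 at day 14, and log2(RPS24A/RPS24B) read 1.23 and 2.30 and 2.42, 2.44 and 2.26, so that the BM45 shifts rested on replicate 2 of day 2. In VIN13 the ratios of the days did not overlap, at 0.88, 0.50 and 0.49 against 2.24, 2.44 and 2.58 for RPS28 and 1.92, 1.43 and 1.56 against 3.06, 3.15 and 2.87 for RPS24. Without BM45 day 2 replicate 2 the average shifts were 0.89 and 0.73, and both were still called. RPS28A fell (-1.07 ± 0.18 in BM45 and -0.42 ± 0.16 in VIN13), as did RPS24A (-0.98 ± 0.13 and -0.46 ± 0.11). The fall of RPS28A in VIN13 was not called with centring (-0.36, adjusted p = 0.101) or without VIN13 day 2 replicate 1 (-0.19, 0.205), VIN13 day 14 replicate 1 (0.0735) or VIN13 day 14 replicate 4 (0.11). In the other direction RPS7A to RPS7B moved by -0.88 ± 0.11 (adjusted p = 4.68e-06) and RPS14A to RPS14B by -0.72 ± 0.09 (adjusted p = 4.2e-06). RPS9A to RPS9B moved by 0.52 ± 0.08 toward A, and both genes fell, RPS9A by differences of -1.16 ± 0.12 and -0.91 ± 0.11 and RPS9B by differences of -1.605 ± 0.14 and -1.505 ± 0.13. RPS10A to RPS10B moved by -0.49 ± 0.07 and RPS1A to RPS1B by -0.48 ± 0.12, both toward B.

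Coding sequences of partner genes are nearly the same, and how much of a signal came from the partner was not tested. Of the 52 genes 13 had more than 1 probe set and these did not always give the same change from day 2 to day 14. For RPS17B the changes differed by 1.36 in BM45 and 0.90 in VIN13, and for RPS23A by 1.05 and 0.64. With unmarked probe sets in place of the brightest, an alternative chosen after seeing the data, the ratio of RPS17A to RPS17B moved by 0.66 in place of -0.47 ± 0.08, and that of RPS23A to RPS23B by -0.30 in place of 0.54 ± 0.06. These 2 directions were therefore not settled. The shift of RPS8A to RPS8B was then 1.11, below the 1.26 of RPS28A to RPS28B, so the order of these shifts was not settled either. Those of RPS11A to RPS11B and RPS19A to RPS19B lost their calls (adjusted p = 0.289 and 0.411), and that of RPS18A to RPS18B gained one (0.51).

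**Figure D5:**
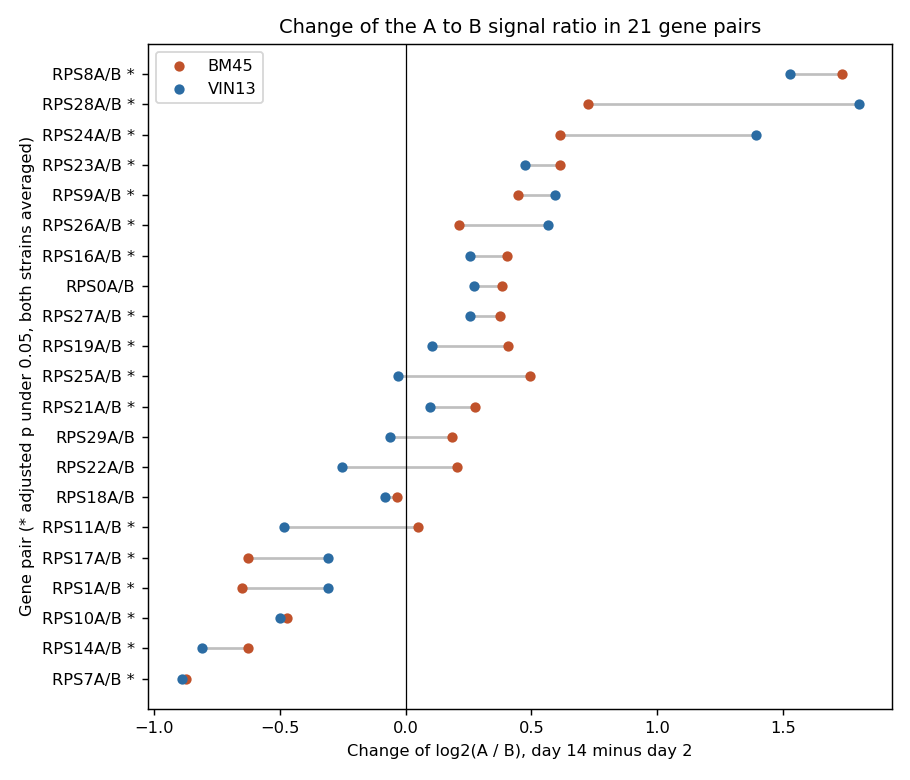
Change of log2(A/B) from day 2 to day 14 for the 21 pairs of small subunit genes (vertical axis), with 1 point for each strain and an asterisk for an adjusted p under 0.05 with both strains averaged. RPS8A/B, RPS28A/B and RPS24A/B move most toward A and RPS7A/B most toward B. With unmarked probe sets RPS8A/B moves less than RPS28A/B, and the directions of RPS17A/B and RPS23A/B turn.

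Strain also went with the ratios. Averaged over days, 10 of the 21 ratios differed, 3 higher and 7 lower in VIN13, beside 44.2% of all 52 pairs. The share of small subunit pairs was thus near that of all 52, nearly all of them ribosomal protein pairs. RPS22A to RPS22B was lower in VIN13 by -0.74 ± 0.08 (adjusted p = 6e-06), and RPS28A to RPS28B by -0.76 ± 0.15 (adjusted p = 0.000913). For RPS28A to RPS28B the difference was -1.32 at day 2, -0.70 at day 5 and -0.25 at day 14. Its average over days was -0.51 without BM45 day 2 replicate 4 and -1.01 without BM45 day 2 replicate 2. Of RPS22A/B the log2 ratio read 0.55 and 0.55 in BM45 and 0.18, -0.004 and -0.50 in VIN13 at day 2, and 0.66, 0.84 and 0.75 against -0.48, -0.20 and -0.40 at day 14. The strains did not overlap on either day. RPS8A to RPS8B was lower in VIN13 by -0.44 ± 0.08, while RPS9A to RPS9B was higher by 0.51 ± 0.07 (adjusted p = 4.23e-05) and RPS1A to RPS1B by 0.41 ± 0.10. By day the difference of RPS1A to RPS1B was uneven, at 0.44 at day 2, 0.01 at day 5 and 0.78 at day 14. These strain differences also depended on the choice of probe set. With unmarked probe sets that of RPS8A to RPS8B was -0.24. Those of RPS10A/B (0.16), RPS16A/B (0.16) and RPS23A/B (0.15, in place of -0.04) gained calls by limma (adjusted p = 0.0278, 0.0497 and 0.00388). The share of all pairs under that setting is not given here. A difference of a probe's match to the sequence of either strain cannot be told apart from a difference of expression here.

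Genes for proteins of the large subunit fell as well. Of their 70 genes 67 fell and none rose from day 2 to day 14 in BM45, with a median of -1.17, and 64 fell and none rose in VIN13, with a median of -0.77, beside 46.6% and 35.5% of all genes that fell. Early falls numbered 46 in BM45, where 33.9% of all genes fell, and 11 in VIN13, a smaller share than the 22.2% of all genes. No difference between the subunits was tested.

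Of 13 genes that control the small subunit genes, 4 rose and 4 fell from day 2 to day 14 in BM45, where 28.8% of all genes rose and 46.6% fell. In VIN13 5 rose and 4 fell, where 28.2% and 35.5% of all genes did, so that most of these shares were near those of all genes. The transcription factor genes FHL1 (1.35 ± 0.24 in BM45 and 0.91 ± 0.21 in VIN13), RAP1 (1.04 ± 0.11 and 0.50 ± 0.10) and SFP1 (1.10 ± 0.25 and 0.68 ± 0.22) rose in both strains, while the gene of their coactivator IFH1 was not called (0.16 ± 0.13 and 0.11 ± 0.11). KOG1, for a subunit of TORC1, fell (-1.35 ± 0.13 in BM45 and -0.85 ± 0.11 in VIN13), and YPK3, for the kinase that phosphorylates Rps6, fell too (-0.73 ± 0.12 and -0.52 ± 0.11). HMO1, for a protein that binds these promoters, fell in VIN13 (-0.91 ± 0.17) and was not called in BM45 (-0.20 ± 0.19).

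Among 12 genes for partners of the small subunit, 7 fell and 1 rose in BM45, beside the 46.6% and 28.8% of all genes, and 7 fell and 4 rose in VIN13, beside 35.5% and 28.2%. ASC1, for a protein on the head that is often counted with the subunit, fell (-1.34 ± 0.15 in BM45 and -1.30 ± 0.13 in VIN13). The assembly helper gene TSR2, for a protein that carries Rps26, fell (-1.34 ± 0.19 in BM45 and -0.53 ± 0.17 in VIN13). STM1, for a protein that occupies idle ribosomes, fell (-1.39 ± 0.14 in BM45 and -1.52 ± 0.12 in VIN13), while LSO1, a relative of the idle ribosome factor LSO2, rose by 1.38 ± 0.22 and 1.63 ± 0.20. Of 7 growth marker genes 4 fell and 1 rose in BM45, beside 46.6% and 28.8% of all genes, with differences from -2.17 to 2.36. In VIN13 5 fell and 0 rose, beside 35.5% and 28.2%, with differences from -1.49 to 0.14. The medians of the 7 were -1.10 and -1.13. GAR1, for a protein of ribosomal RNA modification, had the lowest value in BM45, -2.17 ± 0.15, and -1.24 ± 0.14 in VIN13.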

How the data were processed

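Labelled RNA of 17 samples was hybridised to Affymetrix yeast arrays, per the labels. The deposited values are 1 intensity per probe set and array on a linear scale, made by the authors with Affymetrix Expression Console, per the submitters' processing notes. The algorithm, version, background correction and normalization were not given in the sources used here. Of 10928 probe sets 7245 had a gene in the array annotation, 5498 of them for 5449 S. cerevisiae genes and 1746 for S. pombe. Where a gene had several probe sets, the brightest was used. The background bound is the level that 95 percent of S. pombe probe sets do not pass.

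Log2(intensity + 16) was fitted with limma 3.58.1 in R 4.3.3 to the 6 strain and day groups of all 17 arrays, with Benjamini-Hochberg adjustment over all genes of a comparison. Ratios of partner genes were fitted alike and adjusted over 52 pairs. Genes were named by rule: per comparison all called members where 5 or fewer were called, otherwise up to 4 called members with the largest rise and up to 4 with the largest fall whose groups do not overlap, all members without a partner, members of pairs with a called ratio, and genes of the regulator and partner lists where called. Members that did not fall, IFH1 and the marker genes were named after their values were seen. The members, lists and tests were chosen with earlier results of these data known, and the grouping by place in the subunit was made after seeing the values. The fit was tested on simulated data. Alternatives were the pseudocount (1 or 64), scaling, probe set choice, a filter on dim genes, trend and robust options, array weights, the ACT1 ratio as a covariate, only the arrays compared, the replicate block and arrays left out. The main fit did not pair samples by replicate number. Deviations of same-numbered samples correlated from -0.35 to 0.64, and those of differently numbered samples from -0.65 to 0.50. With 2 or 3 arrays in a group these values cannot settle whether the samples were paired.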

Additional observations from a re-analysis of the deposited data

Results flagged for a closer look

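The change from day 5 to day 14 differed between the strains for 9 small subunit genes, by the interaction term of limma's fit over all genes. Of all genes 34.2% were called, 23.8% higher and 10.3% lower in VIN13, a larger share than of the small subunit genes. The differences, as VIN13 minus BM45 on the log2 scale, were -0.82 for RPS11A, 0.31 for RPS14A, 0.82 for RPS1A, 0.41 for RPS23B, 0.55 for RPS24A, 0.49 for RPS25B, 0.53 for RPS6B, 0.45 for RPS8A and 0.87 for RPS8B. With each array centred on its median gene, RPS11A (-1.01, adjusted p = 0.00454), RPS1A (0.63, adjusted p = 0.0288) and RPS8B (0.68, adjusted p = 0.0156) kept their calls, and the other 6 genes did not (adjusted p from 0.0648 for RPS6B to 0.373 for RPS14A). With 1 of the 17 arrays left out, RPS14A was called in 6 cases and RPS23B in 7. RPS25B was called in 16, the exception being BM45 day 5 replicate 3, and the other 6 genes in all 17.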

How the results depend on the processing

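Of 2790 values of 93 results on single genes under the alternatives, 2627 kept their call and direction, 163 lost the call and none changed sign. The 93 results were chosen because they were called in these data. Many alternatives could not change the difference itself. An array left out from outside the groups compared leaves it as it was, as do the filter on dim genes and the trend and robust options. The lack of sign changes is therefore weak evidence of stability. Counts of called small subunit genes moved by more than 1.5 times in 47 of 412 values. With centring the count went from 28 to 16 for BM45 day 5 minus day 2, from 7 to 3 for VIN13 day 5 minus day 2, from 24 to 14 for the strains at day 14 and from 9 to 5 for the change from day 5 to day 14. With array weights these counts were 12, 18, 38 and 26, and those for the strains at days 2 and 5 were 2 and 17 in place of 5 and 6. With only the arrays compared, they were 2 for VIN13 day 5 minus day 2, 0 at day 2, 10 at day 5 and 15 for the change from day 5 to day 14. Quantile normalization gave 20 for the strains averaged over days, in place of 13. With the ACT1 ratio as a covariate, 10 were called at day 2 and 2 for the change from day 2 to day 5, in place of 5 and 0. Without the 4 arrays with a high ACT1 ratio the counts were 38 at day 14, 9 at day 2, 24 averaged over days, 6 for the change from day 2 to day 5 and 19 for that from day 5 to day 14. The shares of all genes called under each setting are not given here. These counts therefore do not set the small subunit genes against all genes. The causes were not tested.

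With 1 array left out the counts ran from 46 to 49, 42 to 46 and 20 to 30 for BM45 day 14 minus day 2, day 14 minus day 5 and day 5 minus day 2, and from 45 to 49, 35 to 44 and 3 to 14 for VIN13. They ran from 1 to 13, 2 to 7 and 14 to 29 for the strains at days 2, 5 and 14, from 11 to 17 averaged over days, and from 0 to 7 and 6 to 12 for the early and late change. For pairs they ran from 16 to 18 over time and from 9 to 12 between strains.

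Whether the replicate numbers shared by groups pair the samples was not settled. With the replicate block, 48, 44 and 22 genes were called for BM45 day 14 minus day 2, day 14 minus day 5 and day 5 minus day 2, and 49, 40 and 9 for VIN13. At day 2 the block gave 2 in place of 5.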
